A study of Homo sapiens with 6 samples.

Results

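The factors that start, drive and end translation were followed as 1 gene module in new and total mRNA of C646-treated MOLM-13 cells. The members are the protein-coding genes with an official symbol that begins with EIF1 to EIF6 or EEF, together with ETF1, GSPT1 and PABPC1, while the kinases of the EIF2AK family, the copy of EIF1A on the Y chromosome and pseudogenes were left out. Of 69 genes that meet this rule, 66 had an entry among the 25420 genes of the tables, and EIF2S3B, EEF1AKMT4 and EEF1AKMT4-ECE2 were not analysed here. The rule uses symbols and no measured value. MOLM-13, an established human cell line of acute myeloid leukaemia, was kept for 2 h in 10 µM C646, an inhibitor of the acetyltransferases CBP and p300 that competes with acetyl-CoA, or in the solvent DMSO, with 3 replicates in each group. Cells of both groups received 100 µM 4-thiouridine (4sU) for the last 1 h, so that no library without 4sU gives the background of T > C reads here. In SLAM-seq, 4sU in RNA is alkylated and read as C in place of T, and a read with such a conversion (a T > C read) is taken to come from a transcript made during labelling, although sequencing errors give T > C reads too. A single cell line and a single dose and time stand behind all values, and the labels do not say whether the replicates were separate cultures, so that p-values measure the spread between these libraries, which may be technical.

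Translation begins when eIF2 brings the initiator tRNA to the small ribosomal subunit, which eIF3, eIF1 and eIF1A hold open for scanning, while eIF2B reloads eIF2 with GTP. The eIF4F complex, made of the cap-binding protein eIF4E, the scaffold eIF4G and the RNA helicase eIF4A, selects capped mRNA, and the 4E-BP proteins keep eIF4E from eIF4G. The factors eIF5 and eIF5B then release eIF2 and join the large subunit. Elongation relies on eEF1A, which carries the aminoacyl-tRNA, on the eEF1B subunits that reload it, on eEF2, which moves the ribosome by a codon, and on eIF5A, which relieves stalls. The stop codon is read by eRF1 (ETF1) together with the GTPase eRF3a (GSPT1). Many of these mRNAs, those of the elongation factors above all, are abundant and long-lived and begin with a pyrimidine tract (a TOP motif) through which growth signals regulate their translation.

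The 6 libraries held between 7252597 and 10225448 reads on 3′ UTRs, of which between 477824 and 833410 were T > C reads. Reads were counted without molecular identifiers, so that PCR copies are not independent molecules. Values per library are given in CPM, that is counts scaled to the library's total of all reads after TMM, for T > C reads as well, so that a T > C value is set against total mRNA. The 8 markers of myeloid cells that were looked up lay over 1 CPM in both groups (3652 to 3890 CPM in sum over the 3 DMSO libraries and 3764 to 4028 CPM over the C646 libraries). LYZ made most of each sum. SPI1, CSF1R and CD33 were lower in each C646 library than in each DMSO library and FLT3 was higher, while CEBPA, ITGAM, LYZ and MPO overlapped. Of 6 markers of other cell types, CD3E, HBB and ALB were at 0 in each library, and COL1A1 alone lay over 1 CPM in each C646 library. These 6 markers summed to between 0.819 and 2.87 CPM in DMSO and between 7.33 and 7.68 CPM in C646, and their part in the results was not tested. Across the 7722 genes tested, T > C reads had a median log2 fold change of −0.83, and 82.9% of genes lay below 0. Scaling by the T > C reads themselves raised this median by 0.84. In bulk RNA, fewer cells of a kind and less RNA per cell cannot be told apart. Values on the T > C scale are given below as changes relative to the typical gene.

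Start sites are shown first, because the TOP motif is a sequence feature by which mRNAs of the translation machinery are often grouped. The windows come from RefSeq (GRCh38.p14) and run 5′ to 3′ over 30 bases, with 10 bases before the annotated start and 20 from it. Capitals mark a tract that has C as its first base at the start site and at least 4 further C or T. The first 5 windows are of members with such a tract, among them both main elongation factors, and the last 4 are of members without it.
EEF1A1 (chr6:73521013-73521042, minus strand): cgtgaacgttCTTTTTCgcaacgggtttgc
EEF2 (chr19:3985444-3985473, minus strand): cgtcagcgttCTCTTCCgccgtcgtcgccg
EIF2D (chr1:206612446-206612475, minus strand): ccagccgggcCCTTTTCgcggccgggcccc
EIF3F (chr11:7987327-7987356, plus strand): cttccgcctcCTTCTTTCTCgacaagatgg
EIF4A2 (chr3:186783567-186783596, plus strand): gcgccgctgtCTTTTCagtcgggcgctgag
EIF4A1 (chr17:7572815-7572844, plus strand): ggcactccgccctagtttctaaggatcatg
EIF3B (chr7:2354817-2354846, plus strand): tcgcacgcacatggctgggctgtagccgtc
EIF3I (chr1:32222397-32222426, plus strand): ttccggtcttactcacgttgcggccttcct
EIF1 (chr17:41688875-41688904, plus strand): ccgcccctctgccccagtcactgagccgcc

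A start window was at hand for 52 of the 66 members, and 12 of the 52 (23.1%) had the tract: EEF1A1, EEF1B2, EEF2, EIF2A, EIF2D, EIF2S3, EIF3D, EIF3F, EIF3K, EIF3M, EIF4A2 and EIF4B. The 14 without a window were EEF1A2, EEF1AKMT1, EEF1AKMT3, EEF1D, EEF2KMT, EIF2S2, EIF3A, EIF3CL, EIF3E, EIF3G, EIF3H, EIF3L, EIF4EBP1 and PABPC1. Their starts were not looked at, and they enter no count of the tract. Of 27305 genes with a window, 1404 (5.14%) held it, as did 522 (8.19%) of the 6375 genes with a window that were tested in T > C reads. The tract was thus found among members at a higher share than among tested genes, as a description of annotated starts. The helicase paralogues EIF4A1 and EIF4A2 differ in it, and no match says only that these letters do not stand at the annotated start.

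In T > C reads, 54 of the 66 members had enough reads to be tested, and the mean T > C reads over the 6 libraries had a median of 94.3 across them. A call required adjusted p ≤ 0.01 over all genes by edgeR together with a change of 1 or more on the log2 scale in either direction. Of the 54, 23 (42.6%) fell and EIF2D alone rose, against 33.0% of all tested genes called lower and 2.97% called higher. The median log2 fold change of the members was −0.86, close to the −0.83 of all genes, and 28 members lay below the all-gene median and 26 above it. Groups did not overlap, with each C646 library below each DMSO library, in 34 of the 54 members, against 55.8% of all tested genes. Relative to the typical gene, 5 members remained lower (EEF1AKMT3, EIF3B, EIF4EBP1, EIF5A and GSPT1) and 5 were higher (EIF1AD, EIF2D, EIF2S2, EIF3E and EIF5), which is close to the 7.8% and 9.14% of all tested genes called lower and higher on that scale. The module as a whole thus moved with the bulk of genes, and its members differed widely from each other. Summed over members, 2.40% ± 0.186 (SD, n = 3) of all T > C reads fell on translation factors in DMSO and 2.41% ± 0.0756 in C646 (two-sided exact permutation test, p = 1).

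**Figure D1:**
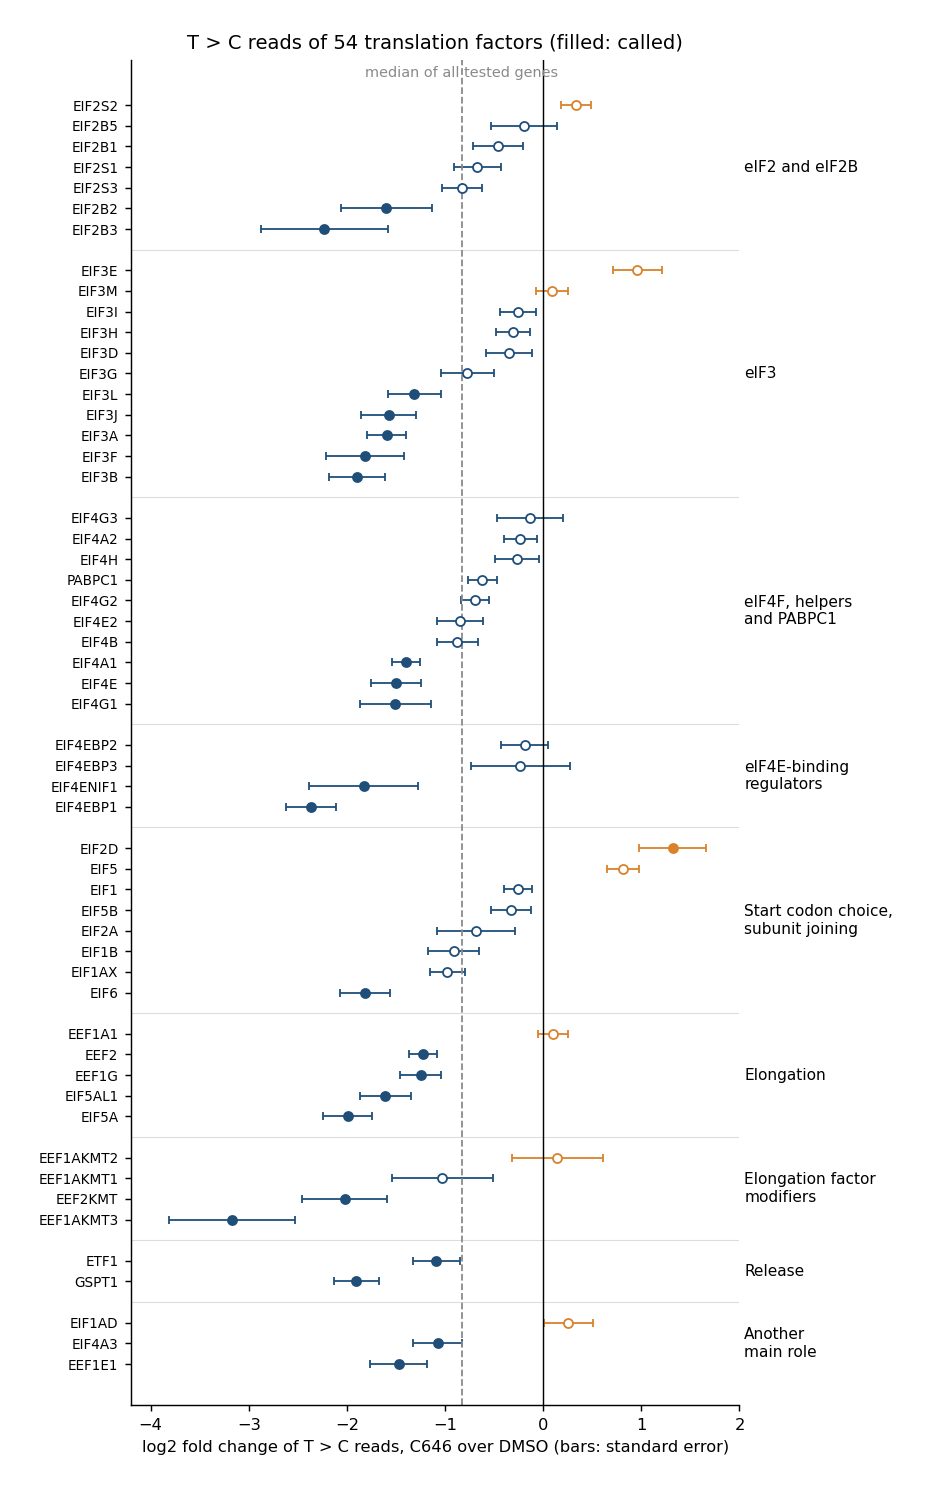
Log2 fold change of T > C reads (C646 over DMSO, x axis) of the 54 tested translation factors, by role, with bars for the standard error. Filled points are the 23 members that fell and EIF2D, which rose; open points were not called, and the dashed line is the median of all tested genes, −0.83.

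The eIF2 and eIF2B group held 8 members, of which 7 were tested in T > C reads. Among the 7, 2 fell, against 33.0% of all tested genes called lower. Both were subunits of eIF2B, EIF2B2 (log2 fold change −1.60 ± 0.46, SE) and EIF2B3 (−2.23 ± 0.65), with edgeR adjusted p-values of 0.00472 and 0.00460. Each of these calls held in 1 of the 6 fits that left out a library, where EIF2B3 ranged from −1.71 without C646 replicate 1 to −3.24 without C646 replicate 3, and EIF2B3 also lost its call with a single 3′ UTR (−1.99). These 2 genes stood at a mean of 20.8 and 12.3 T > C reads per library. EIF2S2, the β subunit of eIF2 (Entrez 8894, 3′ UTR at chr20:34088298-34089729, minus strand of GRCh38), was the member of the group with the most T > C reads. Its T > C reads stood at 45.3, 41.3 and 46.2 CPM in the DMSO libraries (replicates 1, 2 and 3) and 59.4, 51.5 and 56.8 CPM in the C646 libraries, in the same order as in all lists that follow. Each C646 library lay above each DMSO library, while EIF2S2 did not pass the threshold (log2 fold change 0.34 ± 0.16 (SE), edgeR adjusted p = 0.0683). On the scale of the T > C reads, where the typical gene is at 0, EIF2S2 was called higher (1.18). EIF2S1, the α subunit whose phosphorylation shuts down initiation, was not called in T > C reads (−0.67 ± 0.24), and this value turned to 0.16 on the scale of T > C reads. The remaining tested members EIF2B1, EIF2B5 and EIF2S3 lay at −0.46 ± 0.25, −0.20 ± 0.34 and −0.83 ± 0.21 without a call.

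The scaffold eIF3 has the most subunits of any initiation factor, and 11 of its 14 members were tested. EIF3A, EIF3B, EIF3F, EIF3J and EIF3L fell, against 33.0% of all tested genes called lower. The median log2 fold change of the tested subunits was −0.77, beside −0.83 over all tested genes. EIF3B (Entrez 8662, 3′ UTR at chr7:2380204-2380742, plus strand) is a core subunit that ties the complex to the small ribosomal subunit. It was measured at 13.2, 13.6 and 9.02 CPM in DMSO and 3.44, 3.31 and 2.88 CPM in C646. The groups were well apart, a 3.73-fold fall (log2 fold change −1.90 ± 0.28 (SE), edgeR adjusted p = 2.65e-06). Without overlap between groups, EIF3A (−1.60 ± 0.20), EIF3F (−1.81 ± 0.40), EIF3J (−1.57 ± 0.28) and EIF3L (−1.31 ± 0.27) fell as well (edgeR adjusted p = 1.70e-07, 3.86e-04, 3.03e-05 and 1.63e-04). The reads of EIF3A and EIF3F were multimapped in 53.9% and 64.0% of cases, so that related loci could hold part of them. EIF3L lost its call without C646 replicate 2 (−0.97).

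Other eIF3 subunits were not called, and EIF3I and EIF3E are given in full. EIF3I (Entrez 8668, 3′ UTR at chr1:32231197-32231604, plus strand), a WD-repeat subunit and the one with the most T > C reads, had 51.2, 104 and 74.3 CPM in DMSO and 69.7, 61.5 and 60.8 CPM in C646. The DMSO libraries spanned all 3 C646 values, and EIF3I was not called (log2 fold change −0.26 ± 0.18 (SE), edgeR adjusted p = 0.230). EIF3I turned to 0.59 on the scale of the T > C reads and to 0.027 without DMSO replicate 2. EIF3E, a peripheral subunit, gave 17.4, 10.3 and 12.9 CPM in DMSO and 17.2, 22.1 and 39.8 CPM in C646. Its highest value was that of C646 replicate 3, and the lowest C646 value lay just under the highest DMSO value. The log2 fold change of 0.96 ± 0.25 (edgeR adjusted p = 0.00167) missed the size needed for a call by a little, and it ranged from 0.53 without C646 replicate 3 to 1.20 without C646 replicate 1, a call in 3 of the 6 fits that left out a library. EIF3M (0.088 ± 0.16), EIF3H (−0.31 ± 0.17), EIF3D (−0.35 ± 0.23) and EIF3G (−0.77 ± 0.27) were not called either.

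For each of the 3 core proteins of eIF4F, 1 gene fell in T > C reads. EIF4A1 (Entrez 1973, 3′ UTR at chr17:7578372-7579006, plus strand), the main eIF4A helicase, stood at 139, 146 and 134 CPM in DMSO and 54.6, 51.6 and 53.0 CPM in C646. These values were tight within groups and lay far apart between them, a 2.63-fold fall (log2 fold change −1.40 ± 0.14 (SE), edgeR adjusted p = 3.38e-09). The cap-binding protein EIF4E (−1.50 ± 0.26, adjusted p = 1.87e-05) and the scaffold EIF4G1 (−1.51 ± 0.36, adjusted p = 8.12e-04) fell by a similar size in the edgeR test, while 26.3% of EIF4E reads were multimapped and EIF4G1 lost its call without DMSO replicate 1 (−1.25). Relative to the typical gene, EIF4A1, EIF4E and EIF4G1 were at −0.55, −0.66 and −0.67 and none of them was called. Of the 10 tested members of the wider group, the other 7 were not called, and all 10 lay below 0. Over all tested genes, 33.0% were called lower and 82.9% lay below 0. EIF4A2, EIF4G3 and EIF4H were at −0.23 ± 0.17, −0.14 ± 0.33 and −0.26 ± 0.22. EIF4G2, EIF4E2 and EIF4B were close to the typical gene at −0.69 ± 0.14, −0.85 ± 0.23 and −0.87 ± 0.21, and 78.7% of EIF4B reads and 78.7% of EIF4H reads were multimapped. PABPC1, the poly(A)-binding protein that bridges the tail to eIF4G, had 107, 94.4 and 102 CPM in DMSO and 57.3, 66.1 and 73.9 CPM in C646. Its groups did not overlap, but the log2 fold change of −0.62 ± 0.15 was too small for a call (edgeR adjusted p = 8.71e-04) and became 0.22 relative to the typical gene. Summed over this group, T > C reads were 489 ± 23.8 CPM (SD, n = 3) in DMSO and 281 ± 9.95 CPM in C646.

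Among the regulators that bind eIF4E, EIF4EBP1 and EIF4ENIF1 fell in T > C reads and EIF4EBP2 and EIF4EBP3 were not called, against 33.0% of all tested genes called lower. EIF4EBP1 encodes 4E-BP1, the inhibitor that mTOR switches off by phosphorylation. Its T > C reads were 21.3, 22.5 and 19.5 CPM in DMSO and 5.69, 4.17 and 2.58 CPM in C646. No library of the groups came near the other group, and the 5.16-fold fall (log2 fold change −2.37 ± 0.26 (SE), edgeR adjusted p = 1.11e-08) remained a call on the scale of T > C reads (−1.52). EIF4EBP2 (−0.19 ± 0.24) and EIF4EBP3 (−0.24 ± 0.50) lay near 0, and the entry of EIF4EBP3 overlaps the readthrough gene ANKHD1-EIF4EBP3. EIF4ENIF1, which carries eIF4E into the nucleus and into P-bodies, fell by 1.83 on the log2 scale (edgeR adjusted p = 0.00633) at a mean of 14.8 T > C reads per library, and its call held in 1 of the 6 fits that left out a library.

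The factors of start codon choice and subunit joining had 1 lower and 1 higher of 8 tested members, with a median of −0.51. Over all tested genes, 33.0% were called lower and 2.97% higher, with a median of −0.83. EIF6, which keeps free large subunits from joining too early, had 13.8, 17.9 and 14.8 CPM in DMSO and 4.76, 3.06 and 5.26 CPM in C646. All C646 values lay under all DMSO values, a 3.52-fold fall (log2 fold change −1.82 ± 0.26 (SE), edgeR adjusted p = 1.24e-06). EIF2D (Entrez 1939, 3′ UTR at chr1:206591643-206591774, minus strand), which can deliver tRNA without eIF2 and helps to recycle ribosomes, was the only member that rose. It went from 2.95, 2.08 and 3.64 CPM in DMSO to 7.54, 4.90 and 9.23 CPM in C646. The groups did not overlap, and T > C reads were 2.50-fold higher (log2 fold change 1.32 ± 0.34 (SE), edgeR adjusted p = 0.00175). This call was lost without DMSO replicate 2 (1.14) or without C646 replicate 3 (1.10), with EIF2D at a mean of 43.3 T > C reads per library.

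EIF5, the GTPase-activating protein of eIF2, gave 37.5, 31.7 and 31.1 CPM in DMSO and 58.6, 62.0 and 55.9 CPM in C646. Each C646 library was above each DMSO library, and the log2 fold change of 0.81 ± 0.16 (edgeR adjusted p = 1.18e-04) fell short of the size needed for a call, while EIF5 was called on the scale of T > C reads (1.66). EIF1 (Entrez 10209, 3′ UTR at chr17:41690827-41691646, plus strand), which guards start codon choice and had the most T > C reads of its group, stood at 129.5, 106 and 131 CPM in DMSO and 103, 92.6 and 111 CPM in C646. These groups overlapped, EIF1 was not called (log2 fold change −0.26 ± 0.14 (SE), edgeR adjusted p = 0.124), and its sign turned on the scale of the T > C reads (0.58). EIF1B, EIF1AX, EIF2A and EIF5B were not called at −0.91 ± 0.26, −0.98 ± 0.18, −0.69 ± 0.39 and −0.33 ± 0.20, and 34.6% of EIF1AX reads were multimapped. EIF2A turned to 0.15 relative to the typical gene.

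Elongation factors fell in 4 of 5 tested members, against 33.0% of all tested genes, with EIF5A and its near-identical copy EIF5AL1 both among the 4 and EEF1A1 as the exception. EEF1A1 (Entrez 1915, 3′ UTR at chr6:73515750-73517809, minus strand) encodes eEF1A and had the most T > C reads of all members. It stood at 694, 363 and 596 CPM in DMSO and 523, 574 and 670.2 CPM in C646. The C646 libraries lay within the range of the DMSO libraries, of which replicate 2 was the lowest, and EEF1A1 was not called (log2 fold change 0.097 ± 0.15 (SE), edgeR adjusted p = 0.609). Its sign turned to −0.13 without DMSO replicate 2 and to −0.0064 without C646 replicate 3, and 64.6% of its reads were multimapped (many processed copies of this gene exist). EEF2, the translocase, had 227, 239 and 185 CPM in DMSO and 104, 92.9 and 81.9 CPM in C646. It fell 2.34-fold without overlap (log2 fold change −1.23 ± 0.14 (SE), edgeR adjusted p = 3.71e-08). EEF1G, a subunit of the complex that reloads eEF1A, fell with a log2 fold change of −1.25 ± 0.21 (edgeR adjusted p = 1.41e-05).

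EIF5A (Entrez 1984, 3′ UTR at chr17:7311822-7312463, plus strand), which carries the rare residue hypusine, fell most among the elongation factors. Its values were 20.02, 18.2 and 19.9 CPM in DMSO and 6.88, 4.53 and 3.37 CPM in C646. The lowest DMSO library was over the highest C646 library by a wide margin, the fall was 3.98-fold (log2 fold change −1.99 ± 0.25 (SE), edgeR adjusted p = 1.57e-07) and the call held on the scale of the T > C reads (−1.14). EIF5AL1, whose coding sequence is a near-identical copy of that of EIF5A, fell by 1.61 on the log2 scale, and 0.152% of its reads and 6.65% of EIF5A reads were multimapped. Relative to the typical gene, EEF2 and EEF1G were at −0.38 and −0.40 and were no longer called. Summed over the elongation factors, T > C reads were 841 ± 150.0 CPM (SD, n = 3) in DMSO and 707 ± 60.3 CPM in C646, with most of them from EEF1A1.

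Of the enzymes that modify elongation factors, 4 were tested and 2 fell, against 33.0% of all tested genes called lower. EEF2KMT (Entrez 196483, 3′ UTR at chr16:5084300-5085631, minus strand), which methylates a lysine of eEF2, stood at 5.69, 5.27 and 3.64 CPM in DMSO and 1.06, 0.980 and 1.49 CPM in C646. The groups did not overlap (log2 fold change −2.02 ± 0.44 (SE), edgeR adjusted p = 2.94e-04), and 38.8% of its reads were multimapped. EEF1AKMT3, a lysine methyltransferase of eEF1A, had 4.00, 4.16 and 2.83 CPM in DMSO and 0.926, 0 and 0.298 CPM in C646. No library overlapped, and EEF1AKMT3 fell (log2 fold change −3.17 ± 0.64, edgeR adjusted p = 1.44e-04), at a mean of 16.5 T > C reads per library, and it was called in all 6 fits that left out a library, at between −4.37 without C646 replicate 1 and −2.62 without C646 replicate 2. On the scale of the T > C reads, EEF1AKMT3 remained lower (−2.34), while EEF2KMT was at −1.19 and was no longer called. EEF1AKMT1 (−1.03 ± 0.52) and EEF1AKMT2 (0.15 ± 0.46) were not called.

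Both release factors fell, against 33.0% of all tested genes called lower. GSPT1 (Entrez 2935, 3′ UTR at chr16:11868128-11873118, minus strand) gave 20.4, 23.7 and 19.3 CPM in DMSO and 4.89, 6.62 and 5.36 CPM in C646. The 3 C646 values were close together and far below the DMSO values, a 3.75-fold fall (log2 fold change −1.91 ± 0.23 (SE), edgeR adjusted p = 6.55e-08) that held on the scale of the T > C reads (−1.07). ETF1 had 12.5, 16.5 and 14.9 CPM in DMSO and 5.29, 6.74 and 8.43 CPM in C646. It fell 2.13-fold without overlap (log2 fold change −1.09 ± 0.24 (SE), edgeR adjusted p = 4.24e-04), and the call was lost without DMSO replicate 2 (−0.999) or C646 replicate 1 (−0.93). ETF1 was at −0.25 relative to the typical gene and was not called on that scale. In sum, the 2 release factors held 35.8 ± 3.86 CPM (SD, n = 3) of T > C reads in DMSO and 12.4 ± 1.97 CPM in C646.

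In all, 3 genes carry a member's symbol but act mainly elsewhere. EIF4A3 (Entrez 9775, 3′ UTR at chr17:80135214-80135489, minus strand), the helicase of the exon junction complex, had 13.4, 12.9 and 17.0 CPM in DMSO and 4.36, 7.60 and 8.33 CPM in C646. It fell without overlap (log2 fold change −1.08 ± 0.25 (SE), edgeR adjusted p = 7.34e-04), and lost the call without DMSO replicate 3 (−0.94) or C646 replicate 1 (−0.84). EEF1E1, a scaffold protein of the aminoacyl-tRNA synthetase complex, fell as well (−1.47 ± 0.29, edgeR adjusted p = 1.17e-04). EIF1AD, which has a domain like that of eIF1A, gave 9.91, 6.52 and 7.41 CPM in DMSO and 9.26, 8.95 and 10.4 CPM in C646. These values overlapped and EIF1AD was not called (log2 fold change 0.26 ± 0.25 (SE), edgeR adjusted p = 0.392), although it was higher relative to the typical gene (1.10).

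**Figure D2:**
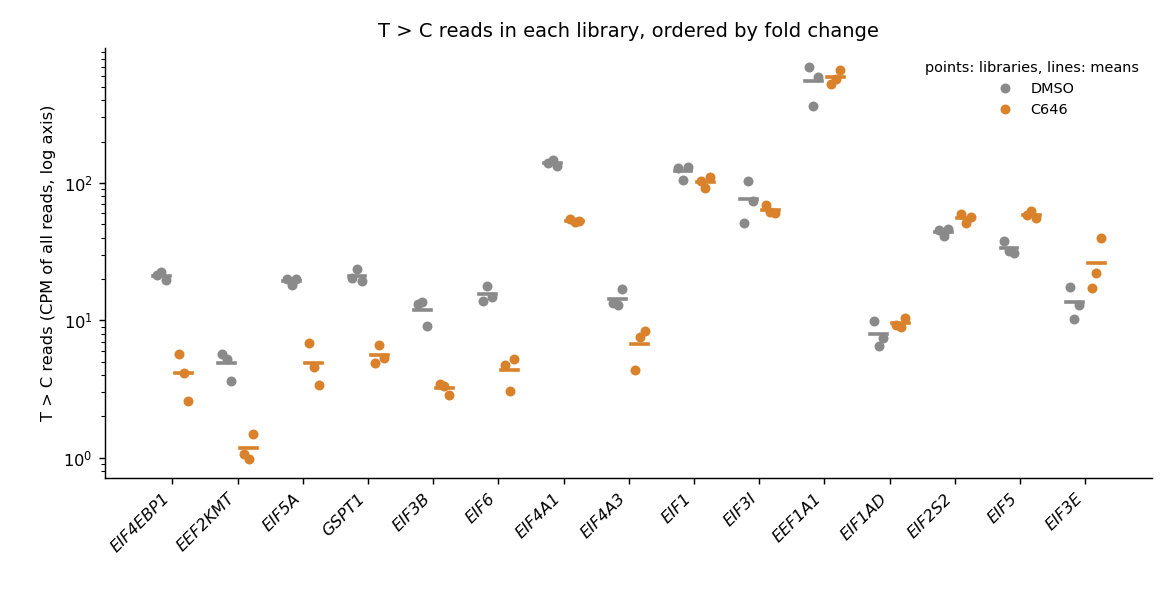
T > C reads in CPM of all reads (log axis) of 15 translation factors in each library, ordered by fold change. Points are libraries (grey DMSO, orange C646) and lines are the means of 3. From EIF4EBP1 to EIF4A3, each C646 library lies below each DMSO library, while EEF1A1 overlaps and EIF5 and EIF2S2 lie higher in C646.

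All reads, which count old and new mRNA alike, gave fewer calls. They are scaled by themselves, which sets their typical gene near 0, so that their median is not to be set against that of T > C reads above. On the T > C reads' own scale, the median of the members was −0.016. Of 58 members tested, 1 was lower and 3 were higher in C646, against 1.88% of 10851 genes called lower and 5.89% called higher, and the median log2 fold change of the members was −0.084 (−0.0030 for all genes). Of the 23 members that fell in T > C reads, 22 were not called in all reads. EIF4EBP1 was the exception, with 381, 442 and 351 CPM in DMSO and 235, 195 and 107 CPM in C646. Its all reads fell by 1.13 on the log2 scale (edgeR adjusted p = 0.00172), a call lost without DMSO replicate 2 (−1.04) or C646 replicate 3 (−0.86).

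EIF2D, EIF3E and EIF5 rose in all reads. EIF2D stood at 13.2, 8.60 and 17.9 CPM in DMSO and 61.6, 51.0 and 75.5 CPM in C646. The lowest C646 library was well above the highest DMSO library, a 4.74-fold rise (log2 fold change 2.24 ± 0.23 (SE), edgeR adjusted p = 1.75e-05), and the call held in all 6 fits that left out a library. EIF3E had 493, 315 and 351 CPM in DMSO and 648, 798 and 1157 CPM in C646. It rose 2.24-fold without overlap (log2 fold change 1.17 ± 0.21 (SE), edgeR adjusted p = 9.65e-04) and lost the call without C646 replicate 3 (0.90). EIF5 gave 133, 104 and 113 CPM in DMSO and 248, 228 and 250.2 CPM in C646. Here too the groups did not overlap (log2 fold change 1.06 ± 0.14 (SE), edgeR adjusted p = 1.10e-04), and the call was lost without DMSO replicate 2 (0.98). EIF2A (0.98 ± 0.18) and PABPC1 (0.90 ± 0.14) were under the size needed for a call, with edgeR adjusted p-values of 0.00132 and 4.31e-04. Without C646 replicate 1 both were called higher (1.02 and 1.01), as was EIF2A without DMSO replicate 3 (1.22). EEF1A1 (0.77 ± 0.24) missed both thresholds (adjusted p = 0.0227).

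PABPC1 and EEF1A1 held many of the reads of the module. In all reads PABPC1 stood at 2679, 2952 and 2910.5 CPM in DMSO and 4481, 5288 and 6116 CPM in C646. EEF1A1 stood at 15199, 6312 and 12904 CPM in DMSO and 17725, 18005 and 23139.8 CPM in C646, with DMSO replicate 2 far below the other libraries. The members' share of all reads was 3.46% ± 0.485 (SD, n = 3) in DMSO and 4.26% ± 0.296 in C646 (p = 0.1 by a two-sided exact permutation test). With 3 libraries in each group, no lower p can be reached.

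**Figure D3:**
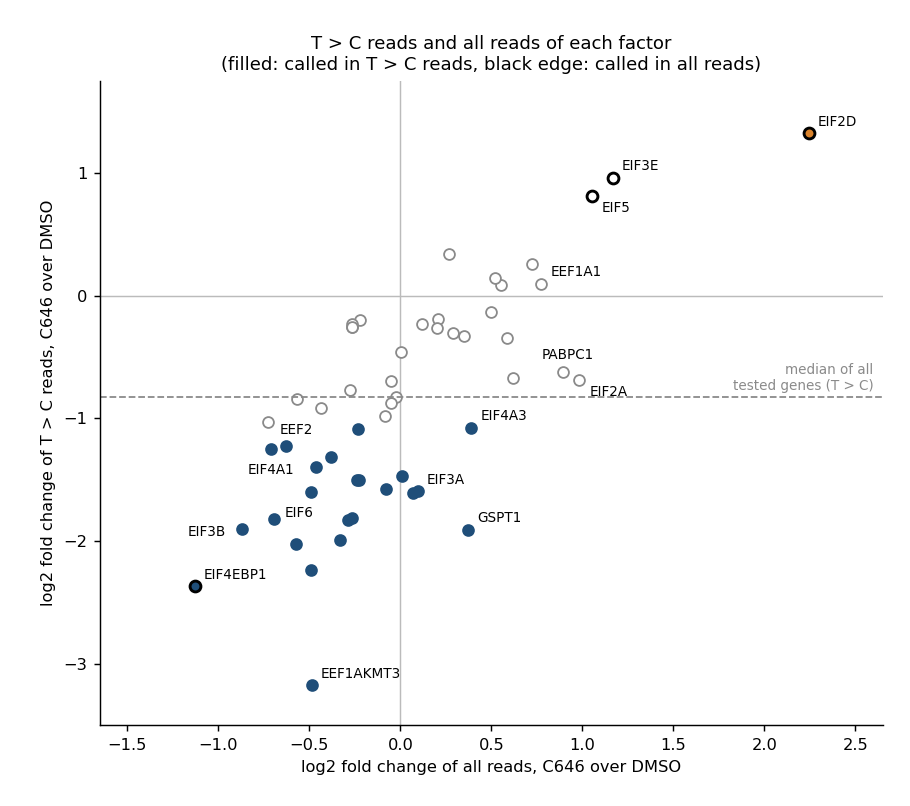
Log2 fold change of T > C reads (y axis) against that of all reads (x axis), both C646 over DMSO, for the translation factors tested in both; T > C reads are a part of all reads. Filled points were called in T > C reads and black edges mark members called in all reads: EIF4EBP1 at the lower left, EIF2D, EIF3E and EIF5 at the upper right. GSPT1 and EIF4A3 were lower in T > C reads with all reads above 0.

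The T > C share, the part of a gene's reads that are T > C reads, needs no scaling between libraries. Within the members it was 6.12% ± 0.375 (SD, n = 3) in DMSO and 3.67% ± 0.0334 in C646 (two-sided exact permutation test, p = 0.1). Over all reads on 3′ UTRs it was 8.79% ± 0.0637 in DMSO and 6.48% ± 0.203 in C646, with the same exact p. The odds of a T > C read fell in 22 of 54 members (40.7%), against 38.3% of all tested genes called lower and 0.79% called higher. The median log2 change of the odds was −0.92 for members and −1.004 for all genes. By edgeR's quasi-likelihood test, the only tool run on the odds, 3 members lay above 0 and 0 of them had an unadjusted p under 0.05. In 40 of 54 members, each C646 share lay below each DMSO share, against 64.5% of all tested genes. Of the 23 members that fell in T > C reads, 18 also fell in the odds, and EIF2A, EIF2D, EIF2S1 and PABPC1 fell in the odds alone.

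GSPT1 showed a clear fall of the share, from 11.0, 10.7 and 9.36% in DMSO replicates 1, 2 and 3 to 2.10, 2.50 and 1.82% in C646. The odds fell by 2.41 on the log2 scale (edgeR adjusted p = 1.41e-09), while all reads of GSPT1 were not called (0.37 ± 0.14). Per T base covered by a read, 0.726% ± 0.119 (SD, n = 3) were converted in DMSO and 0.0973% ± 0.0218 in C646. PABPC1 went from 4.00, 3.20 and 3.50% to 1.28, 1.25 and 1.21%. Its C646 libraries were tightly grouped, and the odds fell by 1.55 on the log2 scale (edgeR adjusted p = 7.16e-12). EEF1A1 went from 4.57, 5.75 and 4.62% to 2.95, 3.19 and 2.90%, without overlap but under the size needed for a call (odds −0.75 ± 0.079, edgeR adjusted p = 7.01e-08).

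EIF2D, which rose in T > C reads and in all reads, had a lower T > C share in C646. Its share was 22.4, 24.2 and 20.3% in DMSO and 12.2, 9.62 and 12.2% in C646. These shares did not overlap, and the odds fell (log2 fold change −1.14 ± 0.35 (SE), edgeR adjusted p = 0.00701), a call that held in none of the 6 fits that left out a library. EIF2A (−1.80 ± 0.33) and EIF2S1 (−1.39 ± 0.22) fell in the odds with edgeR adjusted p-values of 9.81e-05 and 1.95e-05, and both calls held in all 6. At the other end, EIF1, EIF3I and EIF2S2 had odds near 0 change. EIF1 was at 14.1, 14.6 and 14.5% in DMSO and 13.9, 13.6 and 16.0% in C646, EIF3I had a log2 change of the odds of 0.054 ± 0.14 and EIF2S2 of 0.078 ± 0.13.

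In DMSO, the T > C share differed widely among the members tested in T > C reads, to which the order below is limited. It describes the part of the sequenced reads in which a T > C conversion was seen after 1 h of labelling, not the part of the mRNA that was labelled. EIF1AD was the highest at 56.4 ± 8.28% (SD, n = 3), with 3.56 conversions per T > C read, followed by EIF4A2 at 30.4 ± 1.42%, EIF5 at 28.8 ± 1.55% and EIF4ENIF1 at 28.1 ± 5.04%. The libraries of EIF4A2, EIF5 and EIF4ENIF1 overlapped, so that their order is within their spread. EEF1G was the lowest at 2.15 ± 0.160%, then EIF3F at 2.69 ± 0.751% and EIF3H at 3.44 ± 0.263%. Here the libraries of EIF3F reached under those of EEF1G but not up to those of EIF3H. Those of EIF3H overlapped with EIF3E, EIF3L and PABPC1, so that its place is within their spread. The 5 tested elongation factors had a median of 4.62% and the 11 tested eIF3 subunits of 4.48%, against 8.95% for all tested members and 13.3% for all tested genes. The share also depends on how many T bases a read covers and was not corrected for it. In C646, the members' median was 4.52% and that of all tested genes 7.37%.

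**Figure D4:**
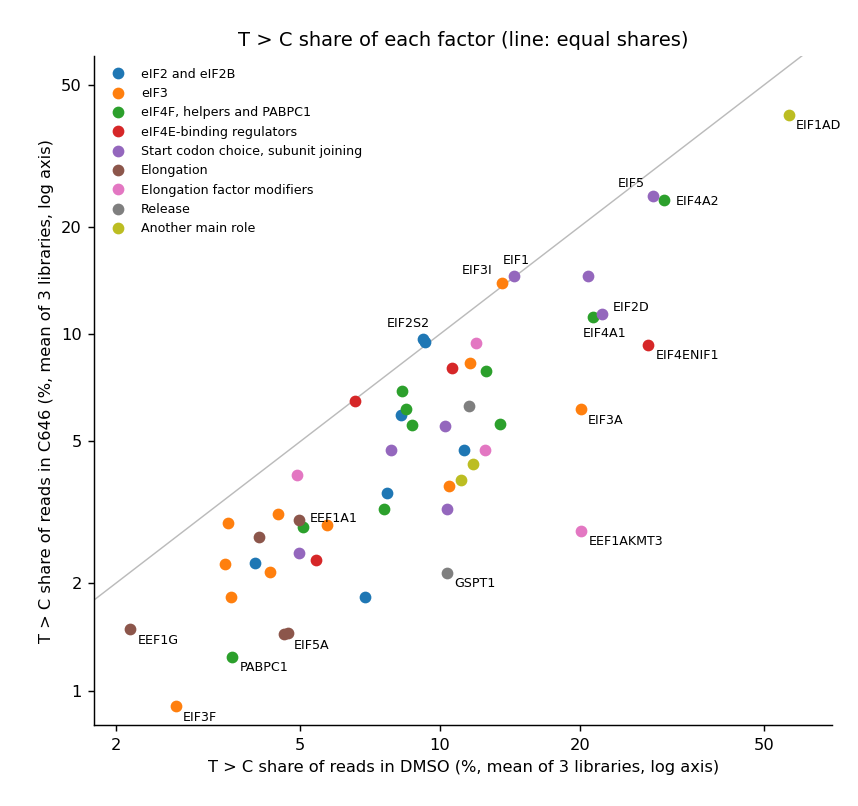
T > C share of reads in C646 (y axis) against DMSO (x axis), in percent on log axes, each point the mean of 3 libraries of 1 tested translation factor, coloured by role. Of the 54 points, 50 lie under the line of equal shares, with EIF1, EIF3I and EIF2S2 close to it and GSPT1 and EEF1AKMT3 farthest under it.

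Pairs of paralogous members were compared by the log2 ratio of their T > C reads within each library, for the 7 pairs in which both genes were tested. For EIF4EBP1 to EIF4EBP2 the ratio was 0.77, 1.05 and 0.85 in the DMSO libraries and −1.15, −0.90 and −1.85 in the C646 libraries. For EIF4A1 to EIF4A2 it was 1.44, 1.86 and 1.41 in DMSO and 0.25, 0.46 and 0.50 in C646. In both pairs all C646 ratios were under all DMSO ratios, differences of −2.19 (p = 0.1) and −1.17 (p = 0.1) in two-sided exact permutation tests. EIF4B to EIF4H gave −0.64 (p = 0.1) by the same exact test, with most reads of both genes multimapped, and was −0.41 (p = 0.2) without DMSO replicate 3. When a library was left out, the difference ran from −2.39 to −1.92 for EIF4EBP1 to EIF4EBP2 and from −1.25 to −1.02 for EIF4A1 to EIF4A2. EIF4G1 to EIF4G3, EIF4G1 to EIF4G2, EIF4E to EIF4E2 and EIF1 to EIF1B gave −1.32 (p = 0.2), −0.82 (p = 0.2), −0.65 (p = 0.2) and 0.70 (p = 0.2) in exact tests, with overlapping groups. Of these, EIF4G1 to EIF4G2 and EIF4E to EIF4E2 were at −0.51 and −0.43 without C646 replicate 2, and EIF1 to EIF1B at 0.43 without DMSO replicate 2 and 0.46 without C646 replicate 1. The adjusted p over the 7 pairs was 0.2 in each exact test, and 0.1 is the smallest p that the design allows before adjustment.

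**Figure D5:**
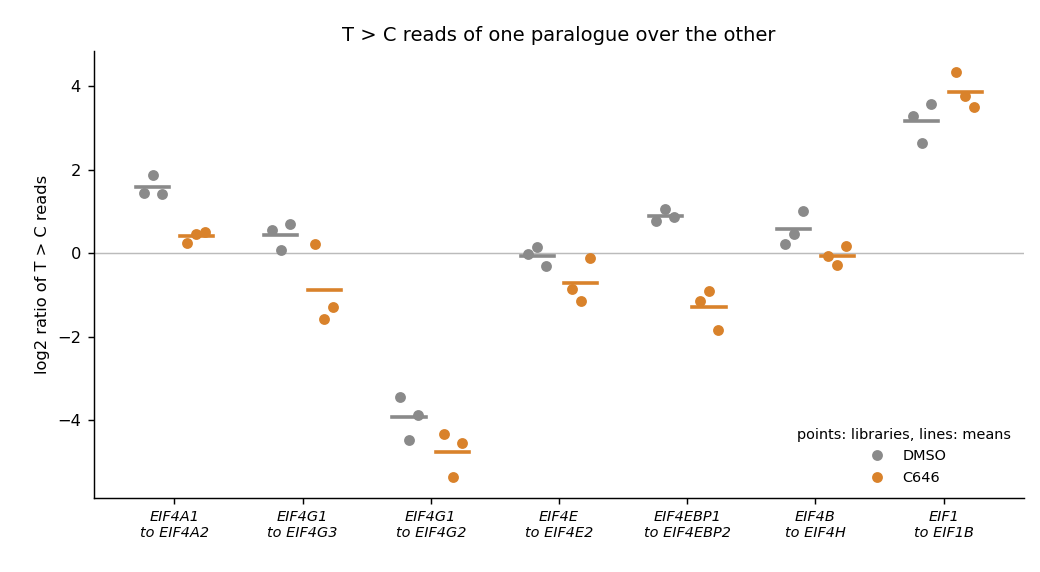
Log2 ratio of T > C reads of 1 paralogue over the other (y axis) in each library, for 7 pairs. Points are libraries (grey DMSO, orange C646) and lines are the means of 3; the groups are apart for EIF4A1 to EIF4A2, EIF4EBP1 to EIF4EBP2 and EIF4B to EIF4H.

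Among members with a start window, those with and without the pyrimidine tract shown above were set side by side. Members without a window, such as PABPC1, EIF4EBP1 and EIF3A, are not part of this. Of the 10 tested members with it, 2 fell (EEF2 and EIF3F) and 1 rose (EIF2D), with a median log2 fold change of T > C reads of −0.52. Of the 33 tested members with a start window and no tract, 16 fell and the other 17 were not called, with a median of −0.98. Over all tested genes with a start window, 31.2% of the 522 with the tract and 33.2% of the 5853 without it were called lower (3.83% and 2.77% higher), with medians of −0.79 and −0.84. In all reads the members' medians were 0.34 and −0.22. Their median T > C share in DMSO was 5.39% with the tract and 10.4% without it. These are counts over genes, which are no replicates of a condition, and no test was made of the difference. Within the group with a tract, EIF2D at 1.32 ± 0.34 and EIF3F at −1.81 ± 0.40 stand at the ends of the range.

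Genes of 5 neighbouring steps, listed by function, were read from the same fits, in which 33.0% of all tested genes were called lower and 2.97% higher. Hypusine and diphthamide synthesis, the pathways that modify eIF5A and eEF2, had 4 lower of 6 tested genes in edgeR's T > C test, namely DHPS (−2.31 ± 0.44), which begins hypusine synthesis, and DPH1 (−1.58 ± 0.28), DPH2 (−2.55 ± 0.42) and DPH7 (−2.35 ± 0.40), which build diphthamide. Kinases and phosphatase subunits of eIF2α had 2 lower and 1 higher of 7, with EIF2AK1 (−1.34 ± 0.31), the heme-regulated kinase, and GCN1 (−1.35 ± 0.27), the activator of GCN2, lower. PPP1R15A, the inducible subunit that directs phosphatase to eIF2α, was higher in T > C reads (1.37 ± 0.19) and in all reads (2.39 ± 0.16). Its odds of a T > C read fell (−2.38 ± 0.31, edgeR adjusted p = 1.05e-06). Of the genes in the 5 lists, EIF2AK3 (1.59), PABPC4 (1.59), TSFM (1.48) and MTRF1 (1.26) were also called higher in all reads, against 5.89% of all genes tested there. Mitochondrial translation factors had 3 lower (TUFM at −1.36 ± 0.27, GUF1 at −2.02 ± 0.35 and MRRF at −1.43 ± 0.33) and 1 higher (MTRF1 at 1.70 ± 0.45) of 11. Partners of the poly(A) tail and the cap had 3 lower of 15, among them LARP1 (−1.98 ± 0.18), which binds TOP mRNAs, with RPS6KB1 (−1.83 ± 0.35) and DDX3X (−1.26 ± 0.21). Recycling and rescue factors had 1 lower of 7 (GTPBP1, −2.48 ± 0.61). The medians of these lists ran from −1.94 (hypusine and diphthamide synthesis) to −0.35 (poly(A) and cap partners), beside −0.83 over all tested genes. With so few genes in each list, the counts are descriptions and set none of the lists apart from other genes.

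The other 12 members had too few T > C reads for the test. Summed over the 6 libraries, all reads and T > C reads numbered 1182 and 53 for EIF2B4, 611 and 9 for EEF1A2, 558 and 32 for EIF4E3 and 133 and 21 for EIF5A2, and these 4 were tested in all reads without a call. EIF3C and EIF3CL share an entry with 14 and 1 reads, EEF1B2 had 9 and 1, EEF2K 4 and 1, EIF3K 2 and 0 and EEFSEC 1 and 0. EEF1D and EIF4E1B had none. The low counts describe these 3′ UTR entries and do not measure the level of the mRNAs. Among the 66 members, the entry with the most reads lay on a UTR that GENCODE release 44 gives to the same gene in 65, with EIF3CL as the exception.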

How the data were processed

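RNA of 6 MOLM-13 libraries (3 DMSO, 3 C646) was sequenced from the 3′ end by QuantSeq after alkylation of 4sU. The authors aligned reads to GRCh38 with SLAM-Dunk (version 0.4.1 per the file headers) and deposited, per 3′ UTR entry, raw counts of reads, T > C reads, conversions and multimapped reads, and the coverage on T bases as a signal. The study called genes on reads with at least 2 conversions, whereas the deposited counts hold all T > C reads. The number of T bases was 0 in each entry of C646 replicate 3 and was not used.

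Counts were summed over the entries of a gene (58136 entries, 25420 genes, 25310 of them matched to a symbol by Entrez identifier). T > C reads and all reads were tested with the quasi-likelihood test of edgeR 4.0.16 in R 4.3.3, with filterByExpr, library sizes from TMM on all reads and Benjamini-Hochberg adjustment over all tested genes. The odds of a T > C read were tested with the same tool on T > C and other reads of each gene, with library as a factor. Calls needed adjusted p ≤ 0.01 with a change of 1 or more on the log2 scale. Standard errors are the log2 fold change over the root of the F statistic. Paralogue ratios (counts plus 0.5) and totals went into exact permutation tests over libraries (two-sided). DESeq2 1.42.0, other scalings and filters, a single 3′ UTR per gene, a replicate block and leaving out each library were alternatives. The fits were tested on simulated data. Named members are those called in any test, the member of each role with the most T > C reads in DMSO and, at 50 or more T > C reads per library, those with the 5 lowest and 5 highest fold changes. Values per library were set for the latter 2 kinds and were added for ETF1, EEF2, PABPC1, EIF2D and EEF1AKMT3 after values were seen. Of the 8 markers of other cell types, 2 are not reported here. Members and lists were chosen with earlier results of these data known. Depth ran from 7252597 to 10225448 reads per library, and the standard error of the T > C log2 fold change from 0.14 to 0.65 over members (median 0.25).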

Additional observations from a re-analysis of the deposited data

How the results depend on the processing

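Scaling by the T > C reads themselves, which sets the typical gene near 0, left 5 members lower and 5 higher in T > C reads with TMM and 6 lower and 5 higher with DESeq2's size factors, against 23 and 1. Of all tested genes, 7.8% and 9.14% were called lower and higher with TMM and 7.32% and 8.55% with DESeq2. Under these 2 scalings, which shift all genes alike, 27 and 29 of the 54 tested members lay below 0, against 46. Among the 34 named members the sign turned for EIF1 (0.58 and 0.55), EIF2A (0.15 and 0.12), EIF2S1 (0.16 and 0.13), EIF3I (0.59 and 0.55) and PABPC1 (0.22 and 0.19), none of which was called in T > C reads. Without DMSO replicate 2 the sign also turned for EIF3I (0.027) and EEF1A1 (−0.13), and without C646 replicate 3 for EEF1A1 (−0.0064). Over the libraries left out, EIF3I ran from −0.48 to 0.027 and EEF1A1 from −0.13 to 0.30. A minimum of 50 reads, which tests fewer genes, gave 16 lower and 0 higher in T > C reads and 14 lower in the odds. Leaving out 1 library at a time gave 20 to 25 lower and 0 to 2 higher in T > C reads, 0 to 1 lower and 2 to 5 higher in all reads, and 16 to 26 lower in the odds. Of the calls, 16 of 23 lower in T > C reads and 16 of 22 in the odds held in all 6 of these fits.

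Deviations of same-numbered libraries correlated weakly, from 0.030 to 0.065 in T > C reads and from −0.0014 to 0.23 in all reads. Libraries with different numbers had mean correlations of −0.023 in T > C reads and −0.064 in all reads. Whether the replicate numbers pair the libraries was not tested. With the replicate block, T > C reads gave 23 lower and 1 higher, all reads 1 lower and 4 higher, and the odds 22 lower. EIF2A was the member added in all reads (1.01), and 20 of the 22 in the odds were shared, with EIF2D and EIF4ENIF1 lost and EIF3D and EIF3L gained. Members with under 10% multimapped reads and without EIF5AL1, an alternative chosen after seeing the data, gave 18 of 45 lower and 1 higher in T > C reads and 17 lower in the odds. Of the calls, that of EIF2D in the odds held in 0 of the 6 fits without a library and those of EIF2B2, EIF2B3 and EIF4ENIF1 in T > C reads in 1 each. The depth limits the precision of members with few T > C reads. Reads are PCR products without molecular identifiers, and the count of conversions per read was not used for calls.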
